A study of Caenorhabditis elegans with 2 samples.

Results

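The 78 genes described here are named as genes for proteins of the cytoplasmic ribosome of Caenorhabditis elegans. They were taken by symbol, as every protein-coding gene named rpl or rps with a number, from the 19985 protein-coding genes of the Ensembl annotation of the WBcel235 assembly (ce11). Of these, 47 are rpl genes of the large subunit and 31 are rps genes of the small subunit. Occupancy of TBX-2, a T-box transcription factor known for its part in pharyngeal muscle development, had been mapped by ChIP-seq in 1 group of 2 biological replicates. Each was a culture of whole hermaphrodite L3 larvae of strain OP159, genotype unc-119(ed3) III; wgIs159, taken 48 h after starved L1 larvae were released from arrest. Both replicates thus shared the unc-119 allele and a transgene for TBX-2 carrying a C-terminal GFP-FLAG tag, which was precipitated through GFP. The genotype lists no change to the worm's own tbx-2 gene, and all tissues were pooled, so no value can be given to one cell type. No input or untagged sample was used here, and the level at these promoters without the tagged protein was not measured.

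Ribosomal proteins fold around the ribosomal RNAs to build the subunits. The small subunit reads the messenger RNA, and the large subunit joins the amino acids. Cells need the proteins in matched amounts, and their genes are among the most strongly transcribed in growing tissue. In C. elegans many messenger RNAs receive a spliced leader at their 5′ end. Where that happens, the annotated 5′ end is a splice acceptor and not the place where transcription began.

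A gene was said to have a peak when a summit of the authors' ce11 list, thresholded on the irreproducible discovery rate, lay between 1000 bp upstream and 200 bp downstream of one of its transcript 5′ ends. Most of the ribosomal protein genes had one: 44 of 78, or 56.4% (exact Clopper-Pearson 95% interval 44.7 to 67.6%, which covers the number of genes only). Over all protein-coding genes the same rule gave 5.41%. A further 29 genes had only a weaker entry in the longer ranked list of the pooled replicates, which includes background. In all, 73 of 78 genes had some pooled entry in the window, against 36.0% of protein-coding genes. Entries of rank 5000 or better were found at 57 of the 78 genes and at 12.3% of all genes. Genes are not replicates, neighbours can share a summit, and no test was made of these shares.

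The strongest member was rpl-3 (WBGene00004414), whose protein reaches towards the site of peptide bond formation in the large subunit. Its peak lay at chrIII:3867338-3867785, with the summit 277 bp upstream. The signal value, which is the authors' peak caller's own and has no stated unit, was 881 in replicate 1, 707 in replicate 2 and 1583 in the pooled list. It stood at rank 14 in the list of replicate 1 and at rank 23 in that of replicate 2.

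The next members were also of the large subunit. For rpl-20, with a peak at chrIV:4749905-4750259, replicate 1 gave 621, replicate 2 gave 555 and the pool gave 1172. For rpl-15, at chrIV:654747-655119, the values were 558 and 453 in the replicates and 1008 in the pool. For rpl-35, at chrIII:7854532-7854852, they were 454 and 355 in the replicates and 811 in the pool. These 3 followed rpl-3 in the same order in both replicates.

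The leading small-subunit gene was rps-1, at chrIII:4475509-4475809, with 376 in replicate 1, 284 in replicate 2 and 663 in the pool. After it came rpl-12, whose protein sits at the base of the ribosomal stalk, with 279, 272 and 557. rps-19 followed with 274 in replicate 1, 230 in replicate 2 and 499 in the pool. These 7 genes were the members within the top 100 of the pooled list, and 0.345% of all protein-coding genes were that high.

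Between pooled values of 329 and 374 lay 5 further members. They were rpl-24.2 (374), rps-12 (368), rpl-7A (363), rps-20 (337) and rps-26 (329). The product of rpl-24.2 resembles the yeast protein Rlp24, an assembly factor that is not part of the finished ribosome, and it is a member by its name. Replicate 2 exceeded replicate 1 at rpl-24.2 (208 against 167) and at rps-12 (201.2 against 165.6). At rpl-7A (183 and 181) and rps-26 (166 and 165) the replicates gave near-equal values. At rps-20 replicate 1 was higher, with 200.6 against 134.1. Values of the replicate lists were not scaled to each other, so such differences are not differences in occupancy.

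**Figure D1:**
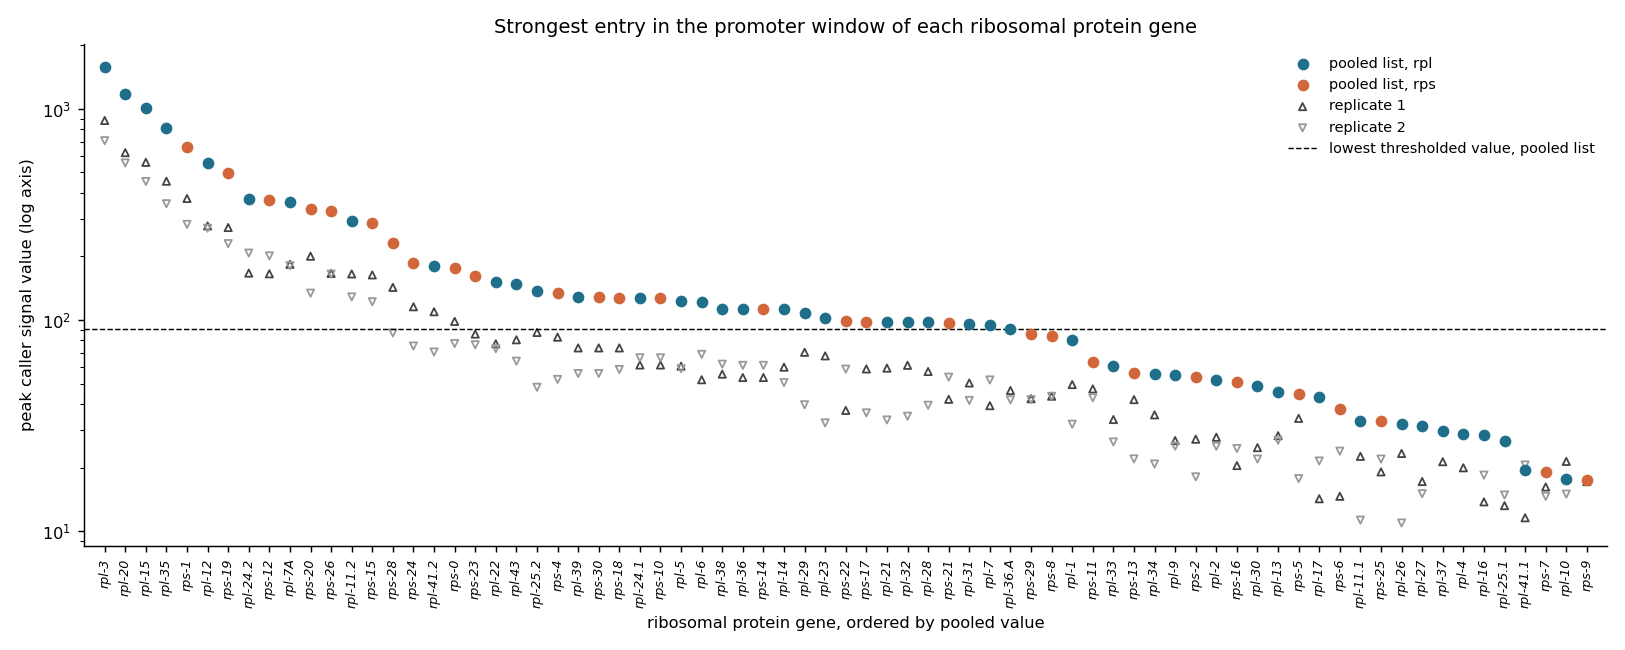
Signal value (log axis) of the strongest entry in the promoter window of each of the 73 ribosomal protein genes with a pooled entry, ordered by the pooled value. Filled circles are the pooled list, triangles the 2 replicates, and the dashed line is the lowest thresholded value, 91.0. A few genes led by rpl-3 at 1583 stand above a long shoulder near the line.

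The peak strengths spread through the thresholded list. The pooled values of the 44 genes ran from 94.6 at rpl-7 to 1583 at rpl-3, with a median of 136 and an upper quartile of 331. Among the 1027 other nuclear protein-coding genes with a promoter peak, the median was 149 and the upper quartile 222. The members' median was thus below that of the other genes, and their upper quartile above it. Peaks above the median of the thresholded list, 139, served 21 of the 78 members, or 26.9%, and 2.97% of all genes.

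Just below the authors' threshold were rpl-36.A with a pooled value of 90.8 at rank 1639, rps-29 with 85.8 and rps-8 with 84.0. rpl-1 with 80.7 and rps-11 with 62.9 came next, and the lowest member inside the threshold was rpl-7 with 94.6. The authors' thresholded list on the other build, ce10, reached down to a value of 73.02. With that lower limit on the ce11 list, a setting chosen after seeing the data, rpl-36.A, rps-29, rps-8 and rpl-1 joined and the count was 48 of 78, while the share of all genes was 7.21%.

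At the other end, 5 members had no pooled entry in the window. These were rpl-18, rpl-19, rpl-42, rps-3, whose protein lines the entry of the messenger RNA channel, and rps-27. Replicate 1 alone held a weak entry at rpl-18 (21.2), and replicate 2 alone held one at rps-3 (15.4) and at rps-27 (24.8). rpl-19 and rpl-42 had none in any of the 3 ranked lists. No list gives read counts and depth is therefore unknown, so an absent entry does not show absent occupancy.

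The replicates ordered the members alike by their strongest entry in the window. That entry need not be the same peak in both replicates. At some members without a thresholded summit, such as rpl-13 and rpl-27, the entries of the 2 replicates lay far apart. Across the 70 members with an entry in both, the Spearman rho of the signal values was 0.915, and across the 44 with a thresholded summit it was 0.814. These are descriptions across genes of the same 2 libraries, 3 pairs of members share 1 summit, and the thresholded summits had been chosen on a pool of both. In the 44, the summits of the 2 replicates lay a median of 15.5 bp apart, and never more than 100 bp. When each replicate list was cut to as many entries as the thresholded list holds, replicate 1 held 40 of the 44, replicate 2 held 37, and both held 34. A summit supported by the strong entries of each replicate was thus present at 34 of 78 members, or 43.6%, and at 4.01% of all genes. The other members included rps-22, with 37.3 in replicate 1 and 58.5 in replicate 2, and rpl-23, with 67.6 and 32.6.

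**Figure D2:**
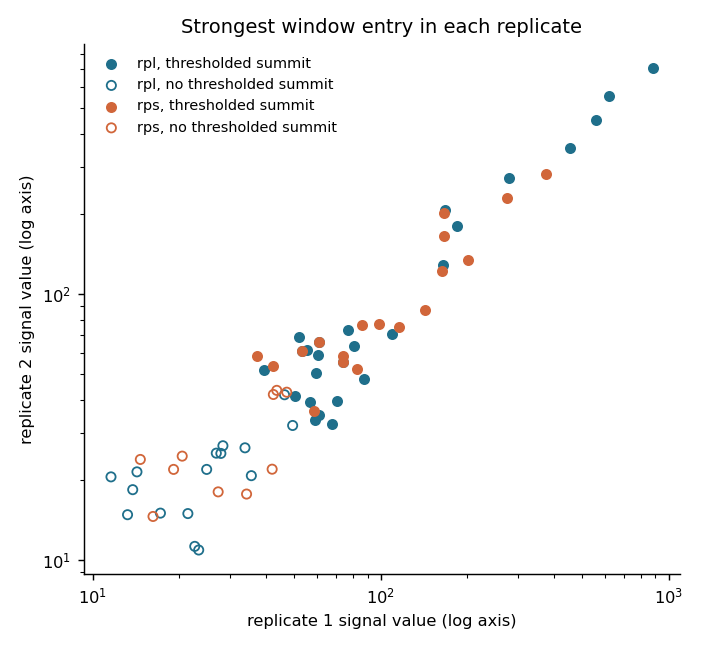
Signal value of the strongest promoter-window entry in replicate 1 (x axis, log) against replicate 2 (y axis, log) for the 70 members with an entry in both; filled points have a thresholded summit. Large-subunit and small-subunit genes run along the same band, from rpl-41.1 at 11.6 and 20.6 to rpl-3 at 881 and 707. For a member without a thresholded summit, the 2 entries can lie at different places in the window.

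Large and small subunit genes carried peaks in similar shares. Of 47 rpl genes 26 had one, or 55.3% (exact 95% interval 40.1 to 69.8%), and of 31 rps genes 18 did, or 58.1% (39.1 to 75.5%). The intervals are wide and cover numbers of genes only, and a summit shared by an rpl and an rps gene counts in both groups. With each summit given only to the nearest gene, 19 of the 47 rpl and 9 of the 31 rps genes had one. The difference between the subunits was not tested. The median pooled value was 128 for the rpl peaks (quartiles 109 and 346) and 169 for the rps peaks (127 and 319), so the ranges between the quartiles overlapped. The 4 strongest members were rpl genes, and the strongest rps gene reached 663 against 1583. Summits lay at a median of 290 bp upstream in the rpl genes and 283 bp in the rps genes. Strong entries in each replicate backed the summit of 19 of the 26 rpl genes and 15 of the 18 rps genes with a peak.

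All 44 summits lay upstream of the nearest transcript 5′ end, at a median of 288 bp, with quartiles of 259 and 382 bp. Of the other nuclear genes with a peak, 93.5% also had it upstream. In 32 of 44 members, 72.7%, the summit was 200 to 400 bp upstream. In the other nuclear genes with a peak, 27.2% were in that band, the median was 244 bp and the quartiles were 136 and 484 bp. The band was not set beforehand and encloses the members' own quartiles, so this contrast is a description. The summits nearest to the 5′ end were those of rpl-12 at 36 bp, rpl-7A at 79 bp and rps-22 at 130 bp. The farthest were those of rpl-43 at 763 bp, rps-18 at 633 bp and rpl-35 at 454 bp. rpl-43 and rps-18 each shared the summit with a neighbour whose 5′ end was closer to it.

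The annotated 5′ ends of these genes had the letters of a splice acceptor. The 2 bases before the most upstream 5′ end were AG in 66 of 78 members, 84.6%, and in 27.6% of all protein-coding genes. The median distance from a 5′ end to the coding start was 8 bp, against 10 bp over all genes. The distances above run from such a position in most members, and where transcription began was not measured.

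**Figure D3:**
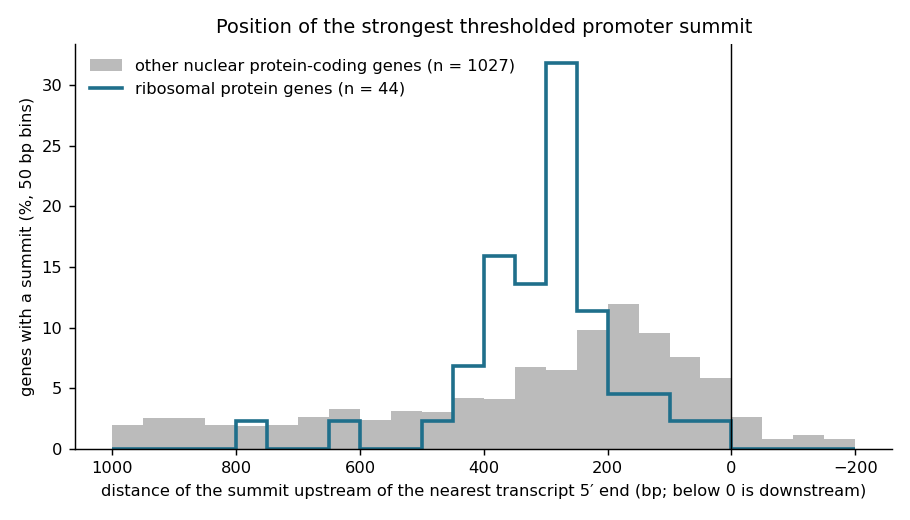
Distance of the strongest thresholded promoter summit upstream of the nearest transcript 5′ end (x axis, bp, falling from left to right) for the 44 ribosomal protein genes (line) and 1027 other nuclear protein-coding genes (grey), as percent of genes per 50 bp bin. The members gather between 200 and 400 bp, a band not set beforehand, where 72.7% of them and 27.2% of the others lie.

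Most members with a peak shared it with a neighbour. The summits of 31 of the 44 members also fell in the promoter window of another protein-coding gene, and 13 had it to themselves. For 28 of the 31 a sharing gene was a diverging one on the opposite strand. The same shares were not computed for other genes with a peak, so sharing cannot be called particular to the members. Shared and unshared peaks had similar strengths, with medians of 136 (quartiles 113 and 333) and 135 (113 and 293), and similar distances, with medians of 280 and 292 bp. The strongest unshared peaks were those of rpl-3 and rpl-35. The strongest shared ones were those of rpl-20, which faces Y17G9B.5, and rpl-15, which shares with K11H12.8.

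Sharing among members themselves involved 6 genes and 3 summits. rpl-39, which lines the peptide exit tunnel, and rps-30, which is made as a fusion to a ubiquitin-like protein, diverge from 1 summit at chrV:7776088-7776507. That summit had 73.7 in replicate 1, 55.8 in replicate 2 and 128 in the pool, and lay 219 bp from rpl-39 and 280 bp from rps-30. rpl-36 and rps-14 share a summit of 113, with 53.4 and 61.0 in the replicates, and it also lies in the window of ndab-2. rpl-24.1 and rps-10 share one of 127, with 61.2 and 66.2. The 44 members thus held 41 distinct summits.

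When each summit was given only to the gene with the nearest 5′ end, 28 of 78 members kept one, 19 rpl and 9 rps, and the share of all genes was 4.11%. Of the 16 members that lost theirs, 13 lost it to a gene outside the family and 3 to the other member of a pair. At rps-26 the summit was 20 bp from tmem-107 and 437 bp from rps-26. At rpl-31 it was 32 bp from sac-2 and 273 bp from rpl-31, and at rps-0 67 bp from rbg-3 and 306 bp from rps-0. For rpl-20 the distances were 175 bp to Y17G9B.5 and 287 bp to rpl-20. Which of 2 facing genes such a peak belongs to cannot be told from these files.

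The arrangement upstream was also set from the annotation alone, for genes with and without a peak. Each gene was classed by its nearest protein-coding neighbour within 1000 bp upstream. For 47 members this was a diverging gene that starts there. For 23 it was a gene on the same strand that ends there or overlaps, and 8 had neither. A peak was present at 28 of the 47 (59.6%), 12 of the 23 (52.2%) and 4 of the 8 (50%). Over all protein-coding genes the shares in these classes were 11.1% of 3463 genes, 4.12% of 6243 and 4.28% of 10279. The shares of the members exceeded those of all genes in each of the 3 classes.

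Small nucleolar RNA (snoRNA) genes, which guide the modification of ribosomal RNA, lie inside 13 of the 78 members. Of these 8 had a peak, 61.5% (exact 95% interval 31.6 to 86.1%), against 55.4% of the 65 members without one. Over all protein-coding genes that hold a snoRNA gene the share was 23.4%. The hosts with a peak included rpl-15, rps-12 with 2 snoRNA genes, rpl-7A with 2 and rpl-6 with 3. The hosts without included rpl-2, rpl-4 and rps-29.

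Members that meet at the same place in the ribosome did not all have a peak. These were picked by role after their values were seen. At the decoding site, rps-23, which helps to check the codon, had 85.8 in replicate 1, 76.4 in replicate 2 and 161 in the pool. Of the proteins lining the exit tunnel, rpl-39 had a peak, while rpl-4 had a pooled entry of 28.8 and rpl-17 one of 43.3. rpl-5, which binds the 5S ribosomal RNA, had 60.5 and 58.8 in the replicates and 123 in the pool. rpl-10, whose protein joins the large subunit late near the site of peptide bond formation, had 21.38 and 14.98 and a pooled entry of 17.6. These entries of rpl-10 lay at different places in the window, whereas rpl-3, near the same site in the ribosome, was the strongest member. rps-6, the substrate of S6 kinase, had 14.6 and 23.9 and a pooled entry of 37.9.

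Only 2 members are on X, and they differed. rpl-11.2, whose protein contacts the 5S ribosomal RNA, had a peak at chrX:2242893-2243113 with 165 in replicate 1, 129 in replicate 2 and 293 in the pool. Its summit was 391 bp upstream. rpl-25.1 had only an entry of rank 14260 in the pool. Its strongest entries in the replicates, 13.2 and 14.8, lay at other places in the window, far from each other. Of the 76 autosomal members 43 had a peak, 56.6%. Over all genes the shares were 6.41% on X and 5.20% on autosomes, and 2 members are too few for a share on X.

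Of the 4 pairs rpl-11, rpl-24, rpl-25 and rpl-41, whose genes share a number and differ in the digit after the point, 3 had a peak at 1 gene and none at the other. rpl-11.1 on chromosome V, the partner of rpl-11.2, had a pooled entry of rank 9401, with 22.6 and 11.3 in the replicates and 33.4 in the pool. The replicate 1 entry of rpl-11.1 lay downstream of the 5′ end, and the pooled and replicate 2 entries upstream. rpl-25.2, the partner of rpl-25.1, had a peak of 136, with 87.3 and 48.0 in the replicates. rpl-41.2 had a peak of 180, with 109 and 70.5, while rpl-41.1 had an entry of rank 23659, with 11.6 and 20.6. The replicate 1 entry of rpl-41.1 lay at another place in the window than the pooled and replicate 2 entries. rpl-41.1 and rpl-41.2 lie next to each other on the same strand. How reads from sequence that they may share were placed is not stated in any source used here, so their values are uncertain. In the rpl-24 pair both had a peak, 127 at rpl-24.1, shared with rps-10, and 374 at rpl-24.2.

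The sequence under the summits rarely held the T-box site. In windows reaching 100 bp to each side of the 41 distinct summits, read on both strands, the T-box site GGTGTGA was found in 0 of 41 (exact 95% upper bound 8.60%), in 0.854% of 820 other promoter summits and in 1.22% of 82 windows centred 1000 bp from the members' summits. The shorter core GGTGTG, which is part of it, was found in 1 of 41, 2.44% (exact 95% interval 0.0617 to 12.9%), against 7.20% and 4.88%. No match says only that these letters were not in these windows.

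Other fixed motifs gave shares on both sides of those at other promoters. GAGAG was in 31.7% of the members' windows (13 of 41, exact 95% interval 18.1 to 48.1%) and in 59.3% of other promoter summits, and also in 31.7% of the windows 1000 bp away. The run TTTTTC was in 85.4% (70.8 to 94.4%) against 53.3%, and in 46.3% of the windows 1000 bp away. TTTCAG, the letters of a strong splice acceptor, was in 31.7% against 16.3%, and also in 31.7% of the windows 1000 bp away. CACGTG was in 2.44% against 6.59%, TGATAA in 7.32% against 8.54%, CCGCCC in 9.76%, or 4 of 41, against 98 of 820, and TATAAA in 12.2% against 13.2%. The mean GC content was 41.9% at the members, 45.2% at other promoter summits and 39.9% in the windows 1000 bp from the members' summits.

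Then all 6-letter words were ranked by how far their share in the members' windows exceeded that in other promoter summits. This choice was made on these windows, so the excess of the leading words is a description and not a test. The first was CCTAAA, in 18 of 41 members' windows, 43.9% (exact 95% interval 28.5 to 60.3%), against 4.63% of other promoter summits and 6.10% of the windows 1000 bp away. The second was ACCGTA, in 19 of 41, 46.3% (30.7 to 62.6%), against 7.56% and 1.22%. The next were AAATCG (58.5% against 23.8%), AAAAAT (85.4% against 51.3%) and AAATTG (61.0% against 27.8%). Both leading words were present in 10 of 41 members' windows and in 0.610% of the others, and 27 of 41 members' windows had at least 1 of them, 65.9%, against 11.6% of the others.

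The promoters of 4 members show the leading words in place. Each run is 151 bases of the WBcel235 assembly from RefSeq, 5′ to 3′ on the strand of the gene, with the summit at base 51, and capitals mark CCTAAA or ACCGTA on either strand (TTTAGG and TACGGT when reversed). They are rpl-20 (chrIV:4749965-4750115, minus strand), rpl-15 (chrIV:654825-654975, minus), rpl-21 (chrIII:8130446-8130596, minus) and rpl-11.2 (chrX:2242909-2243059, minus). rpl-20 and rpl-15 are among the strongest members, rpl-21 holds both words on the strand of the gene, and rpl-11.2 is the member on X with a peak.
rpl-20: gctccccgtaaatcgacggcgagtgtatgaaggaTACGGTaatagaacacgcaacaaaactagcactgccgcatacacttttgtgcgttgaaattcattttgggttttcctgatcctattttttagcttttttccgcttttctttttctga
rpl-15: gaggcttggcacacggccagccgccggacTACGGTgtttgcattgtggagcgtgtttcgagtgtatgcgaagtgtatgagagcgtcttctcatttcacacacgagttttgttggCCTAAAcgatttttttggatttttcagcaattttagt
rpl-21: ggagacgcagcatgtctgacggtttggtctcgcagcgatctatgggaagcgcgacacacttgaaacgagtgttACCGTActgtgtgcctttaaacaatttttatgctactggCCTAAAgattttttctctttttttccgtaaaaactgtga
rpl-11.2: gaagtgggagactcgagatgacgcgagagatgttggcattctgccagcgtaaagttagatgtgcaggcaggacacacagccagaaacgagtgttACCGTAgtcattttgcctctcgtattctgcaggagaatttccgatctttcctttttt
In rpl-15 the second word lies just before the summit on the opposite strand and the first lies beyond it towards the gene. rpl-20 has the second word alone, also just before the summit and on the opposite strand.

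The first word kept a regular distance from the summit. In the 18 summit windows that hold it there were 19 sites, and 17 of them lay on the side of the gene. The median position was 63 bp from the summit towards the gene, with quartiles of 53.5 and 65 bp. Of the 19 sites, 14 lay 40 to 70 bp away, a range that was not set beforehand and encloses these quartiles. On the strand, 15 of 19 read in the direction of the gene. Measured from the transcript 5′ end, the median was 210 bp upstream. The second word lay closer to the summit, at a median of 7 bp with quartiles of -10 and 27 bp, and 13 of 19 sites read in the direction of the gene. For summits shared by 2 members, direction was counted from the rpl gene.

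**Figure D4:**
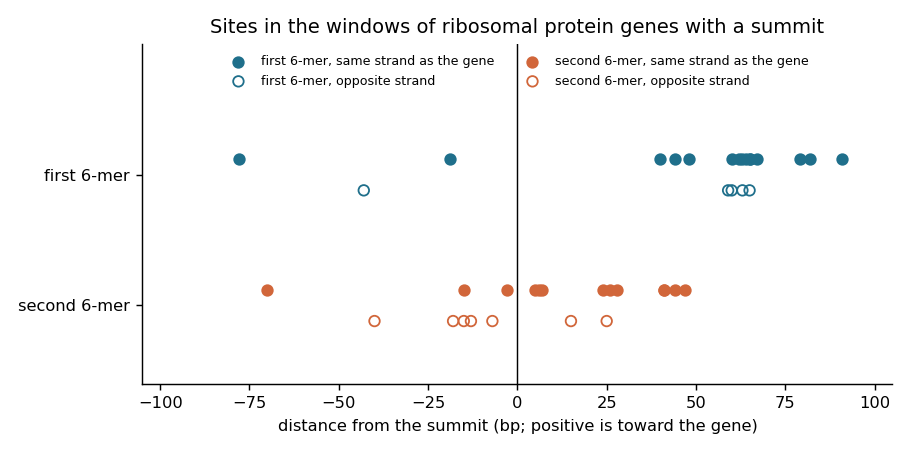
Positions of the first and the second leading 6-letter word relative to the summit (x axis, bp, positive towards the gene) in the windows of ribosomal protein genes with a summit; filled points read along the gene and open points against it, and a summit shared by 2 members is drawn for both, which gives 20 points for each word. Most points of the first word stand at 40 to 70 bp, and those of the second spread around the summit.

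The letters beside the words were alike in several members. CCTAAA was preceded by GG in 9 of the 18 members' windows that held it, and in 2 of the 38 other promoter windows that did. Of the 9 sites, 8 are shown, each written in the direction of the word with the word in capitals.
rpl-7A: tccttggCCTAAAaatcgtc
rpl-15: ttgttggCCTAAAcgatttt
rpl-21: ctactggCCTAAAgattttt
rpl-22: ttctcggCCTAAAtttgctt
rpl-28: gagctggCCTAAAatctaat
rpl-43: tgttgggCCTAAAatcgcga
rps-4: cgtctggCCTAAAatcaatt
rps-28: gcgttggCCTAAAatatttt
GAGTGT stood before ACCGTA, with 1 base between, in 8 of the 19 windows with that word, against 4 of 62 other promoter windows. These longer forms were picked after seeing the sites. Of the 8, 7 are shown, again with the word in capitals.
rpl-6: gagtgtcACCGTAgtcagac
rpl-11.2: gagtgttACCGTAgtcattt
rpl-21: gagtgttACCGTActgtgtg
rpl-22: gagtgtgACCGTAgttattg
rpl-29: gagtgtgACCGTAtccgcca
rps-18: gagtgttACCGTAccttcga
rps-23: gagtgttACCGTAcctcgag
In each of the 8 sites shown of the first group the 3 letters before the word were TGG, CGG or GGG, and in the second group the base between GAGTGT and the word was t, g or c.

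The words also occurred upstream of members that had no peak. In the 500 bp before the most upstream 5′ end, CCTAAA was found in 30 of the 44 members with a peak (68.2%), in 18 of the 34 without (52.9%) and in 21.4% of all protein-coding genes. ACCGTA was found in 45.5% and 47.1% of these groups and in 13.9% of all genes. The longer GGCCTAAA, which contains the first word and was picked after seeing the sites, was found in 12 of 44 (27.3%) and 10 of 34 (29.4%), and in 1.65% of all genes. The 34 genes without a peak played no part in ranking the words. By subunit, CCTAAA was upstream of 30 of 47 rpl genes and 18 of 31 rps genes, and ACCGTA of 25 of 47 and 11 of 31.

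Outside the family, the share of genes with a peak was also set beside the words, with no test of the differences. Leaving out members and genes that share a member's summit, 4213 genes had CCTAAA upstream and 4.87% of them had a peak, against 5.14% of the 15668 genes without it. For ACCGTA the shares were 6.35% and 4.88%. For GGCCTAAA they were 7.64% of 301 genes and 5.05%.

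Other parts of the translation machinery gave mixed shares. These lists were drawn by symbol. Elongation factors had a peak at 5 of 6 eef genes. They were eef-2 with 168 and 164 in the replicates and 334 in the pool, eef-1G with 157 and 134 (pool 296), and eef-1A.2 with 125 and 95.1 (pool 211). eef-1B.1 (103 and 96.1, pool 193) and eef-1A.1 (86.4 and 100.2, pool 190) followed, and eef-1B.2 was below the threshold with a pooled value of 48.0. Of 33 genes named as initiation factors, 4 had a peak. In the pool these were iff-2 with 458, eif-3.C with 433, eif-3.B with 161 and eif-2Bgamma with 138. The 33 are listed by name only, and whether each acts in initiation was not checked.

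Of 6 ribosomal proteins and partners that carry other names, only ubq-2, which encodes ubiquitin fused to a large-subunit protein, had a peak, with 99.8 and 69.0 in the replicates and 168 in the pool. ubl-1, a ubiquitin-like fusion to a small-subunit protein, had 78.0 and rack-1 had 58.8, both under the threshold. rla-0, a stalk protein, had an entry of 22.6, and rla-1 and rla-2 had no pooled entry. Mitochondrial ribosomal proteins, which build the ribosome of another compartment, had a peak at 11 of 70 genes, 15.7% (exact 95% interval 8.11 to 26.4%). One of the 11, mrpl-49, shares its summit with rpl-28, and mrpl-1 and mrps-24 share another. Some other peaks of these lists, such as those of eef-2 and iff-2, also lie in the window of another gene. Others, such as those of eef-1A.2 and eif-3.C, do not. Aminoacyl-tRNA synthetases had a peak at 1 of 31 genes, ears-2 with 250. The share was 12.1% for the initiation factors (upper bound 28.2%) and 3.23% for the synthetases (upper bound 16.7%). It was 56.4% for the cytoplasmic ribosomal proteins and 5.41% over all protein-coding genes. The intervals cover numbers of genes only, genes of different lists can share a summit, and no test was made between lists.

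The first word was also counted in these lists. CCTAAA stood in the 500 bp upstream of 48 of 78 cytoplasmic ribosomal protein genes (61.5%), of 4 of the 6 partners (rack-1, rla-0, ubl-1 and ubq-2) and of 3 of the 6 elongation factors (eef-1A.1, eef-1A.2 and eef-1B.1). It stood upstream of 8 of 70 mitochondrial ribosomal protein genes, 11.4%, below the 21.4% of all genes. For the initiation factors it was 7 of 33, 21.2%. For the synthetases it was 11 of 31, 35.5%, above the share of all genes, although 1 of the 31 had a peak.

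**Figure D5:**
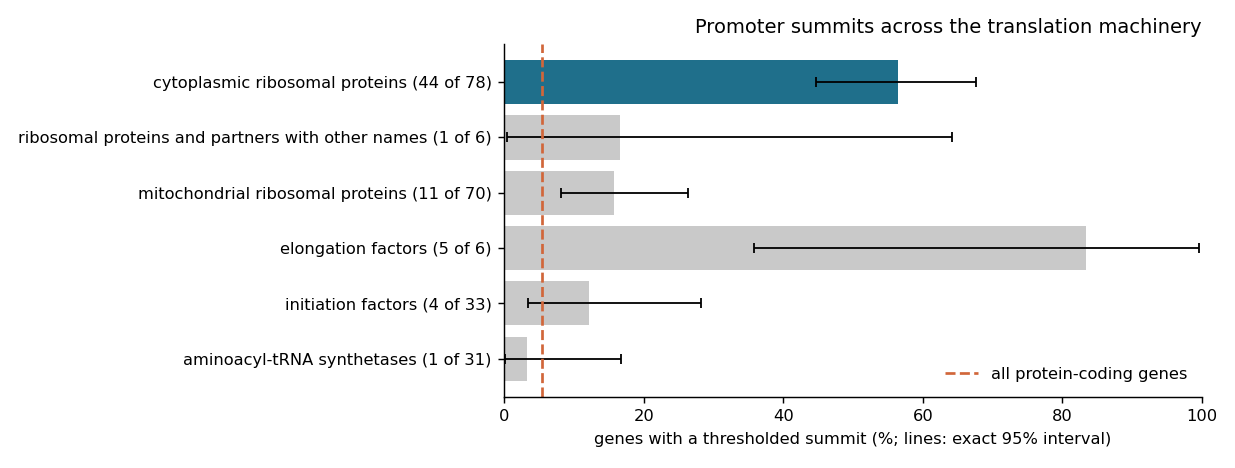
Percent of genes with a thresholded promoter summit (x axis) in the cytoplasmic ribosomal protein genes and 5 other lists of the translation machinery; bars are the shares, lines are exact 95% intervals and the dashed line is the 5.41% of all protein-coding genes. The 56.4% of the cytoplasmic ribosomal proteins and the 5 of 6 elongation factors stand apart from the mitochondrial ribosomal proteins at 15.7%.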

How the data were processed

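Anti-GFP ChIP-seq was deposited for 2 biological replicates. Per the labels, fragmentation was by sonication. On build ce11 the authors deposited narrowPeak lists that rank peaks together with background, 1 from each replicate (28366 and 30000 entries) and 1 from the pool (30000), and a shorter list cut by irreproducible discovery rate. The signal value in these deposited lists is the authors' peak caller's own. No source used here names the aligner, caller or settings, or gives depth. The entries hold no read counts, so intervals cover numbers of genes or summits only. Of the ce10 lists, only the lowest thresholded value (73.02) was used, because no ce10 annotation was used.

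Coordinates were used with the WBcel235 assembly (sequence from RefSeq) and the Ensembl annotation, and 0 entries extended past a chromosome end. Windows, distances, ranks, exact Clopper-Pearson intervals and motif shares were computed in Python 3.11.15 with SciPy 1.17.1, and the window code was tested on simulated data. The strongest summit in a window stands for a gene. No test was run, because the design is 1 group and genes are not replicates. The members, lists and motifs were chosen with earlier results of these data known. Named were the 12 strongest members, the strongest 5 of each subunit, members on X, paralog pairs, members next below the threshold or without an entry, the 3 nearest and 3 farthest summits, and members sharing a summit. Other members named as examples, such as rpl-23, rpl-6, rpl-10 and rps-6, were chosen after their values were seen. Alternatives were other windows, peak sets, 5′ ends and replicates. The promoter sequence of rpl-3 is not reported here.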

Additional observations from a re-analysis of the deposited data

How the results depend on the processing

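Leaving out one replicate gave 37 to 40 members with a peak (rpl 20 to 24, rps 16 to 17), a share of all genes of 5.13 to 5.24% and a median distance of 287 to 288 bp. No paired analysis was possible because there is only 1 group. With 500 bp upstream 42 members had a peak and 4.12% of all genes did, and with 2000 bp 45 members and 7.29%. With only the peaks above the median of the list the counts were 21 members, 11 rpl and 10 rps, with 2.97% of all genes. With summits in the top of both replicates, 4.01% of all genes were left. Overlap with the window gave 5.86%, and the most upstream 5′ end alone 4.98%, with 44 members in each. The nearest gene alone gave 28 members, 9 of them rps, and 4.11% of all genes. That setting gives no count of shared summits. The ce10 limit, added after seeing the data, gave 48 members and 7.21%. Smaller counts under stricter peak sets or windows follow from testing fewer peaks or positions. The members' share stayed above that of all genes in every setting listed here. Unknown depth limits what a missing entry can show.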
